A study of Mus musculus with 6 samples.

Results

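Expression of 10 Ets transcription factor genes was described in mouse inner medullary collecting duct (IMCD) cells. By the sample titles, the cells overexpressed either wild-type integrin-linked kinase (ILK) or its missense variant T173I. The genes were Etv1, Etv4 and Etv5, which form the PEA3 subfamily, and the other Ets factors Etv6, Ets1, Ets2, Elf1, Elf3, Ehf and Elk3, 10 of the 22180 genes with a value. They were chosen by name with their measured signal and their T173I minus wild-type difference already known, so those differences are given without a test. A probe set stood for a gene where the platform annotation gave it exactly 1 symbol, and the brightest was taken where a gene had several.

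Stable IMCD lines were made with a lentivirus whose bicistronic vector encodes GFP and ILK. The groups were 3 arrays of cells overexpressing wild-type ILK and 3 of cells overexpressing ILK-T173I. EGF (20 ng/ml, 15 minutes) followed by a 1 hour incubation preceded RNA extraction in both groups, so EGF and an ILK vector were common to all arrays. The labels call the 3 arrays of a group biological replicates, and nothing in the labels says how many stable lines they came from. With 1 line per group, line and variant cannot be told apart. The annotation has no probe set of Ilk alone (3 list it beside another gene), so the level of Ilk RNA is not given.

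Ets factors share a winged helix-turn-helix domain that binds DNA around a GGAA core. The PEA3 factors are activators whose genes are switched on by receptor tyrosine kinases through the RAS and ERK cascade. One route is loss of repression by capicua (Cic), which ERK signalling inactivates. In the developing ureteric bud, from which the collecting duct arises, Etv4 and Etv5 act downstream of the receptors Ret and Fgfr2 in branching. Elf3 and Ehf are epithelium-specific members of the family. Elk3 is a ternary complex factor that acts with the serum response factor, and Etv6 is a repressor.

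Signal was the deposited log2 value, on a scale where 1 unit is a 2-fold step, and array medians lay between 5.45 and 5.52. T173I replicate 1 stood nearer to the wild-type arrays (Pearson correlation 0.985 to 0.991 over 13308 genes, not independent of each other) than T173I replicate 2 did (0.959 to 0.967), with T173I replicate 3 at 0.977 to 0.983. The median SD of a gene was 0.098 in wild type and 0.16 in T173I. Of 13 collecting duct and epithelial markers with a value, 12 passed the filter on dim genes, a mean log2 signal above 5.37, with Cdh1, Epcam, Krt8 and Krt18 among them. Aqp3, a principal cell water channel, did not pass, and Aqp2 (5.97 to 6.25) and Scnn1a (6.22 to 6.30) were not far above the filter. The T173I arrays all lay above wild type for Krt8, Krt18 and Krt19 (differences 0.64, 0.44 and 1.62). For Gata3 they all lay below (-0.78), and for the other epithelial markers the groups overlapped. No endothelial marker passed (0 of 5), 2 of 6 fibroblast markers did (Col1a1 and Postn), and 2 of 5 leukocyte markers did (Cd68 and Csf1r), while Ptprc, the defining leukocyte gene, stayed at 3.55 to 3.81. The mean level of the leukocyte list was 5.51 to 5.83 in wild type and 5.59 to 5.79 in T173I, that of the fibroblast list 4.87 to 5.31 and 4.92 to 5.45, and that of the endothelial list 4.70 to 4.87 and 4.85 to 4.95. Cd68 was higher in T173I by 1.10 and Csf1r had a difference of -0.78. Postn, a fibroblast marker, was at 4.65 to 6.26 in wild type and at 8.05, 5.49 and 4.30 on T173I replicates 1, 2 and 3, highest on the T173I array that stood nearest to wild type. The part of these 3 genes in the results was not tested.

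The promoters of Etv5 and Etv1 are shown because the first separated the groups and the second did not. RefSeq promoter windows (GRCm38.p6) of 250 bases before to 50 bases after a transcription start matched 7 of the 10 factors, with Etv4, Ets1 and Ehf unmatched. Etv5 and Etv1 had 2 starts each. Capitals mark every match, on either strand, to 7 motifs. These were the Ets core GGAA, whose reverse complement reads TTCC, and the longer Ets site CCGGAAGT. The capicua octamers searched were TGAATGAA and, as a variant, TCAATGAA. The AP-1 site TGANTCA and the cyclic AMP response element TGACGTCA are their own reverse complements. The last motif was TGAATGG, whose reverse complement reads CCATTCA. These letters, close to the capicua octamer, were added after these promoters had been read.
Etv5 start 1, chr16:22439521-22439820, minus strand: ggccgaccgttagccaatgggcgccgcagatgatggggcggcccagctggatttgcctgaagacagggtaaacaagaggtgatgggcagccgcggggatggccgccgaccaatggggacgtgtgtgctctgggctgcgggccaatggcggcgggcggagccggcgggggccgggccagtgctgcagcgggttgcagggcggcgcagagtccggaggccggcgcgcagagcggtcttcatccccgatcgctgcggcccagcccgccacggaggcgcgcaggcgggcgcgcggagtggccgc
Etv5 start 2, chr16:22438319-22438618, minus strand: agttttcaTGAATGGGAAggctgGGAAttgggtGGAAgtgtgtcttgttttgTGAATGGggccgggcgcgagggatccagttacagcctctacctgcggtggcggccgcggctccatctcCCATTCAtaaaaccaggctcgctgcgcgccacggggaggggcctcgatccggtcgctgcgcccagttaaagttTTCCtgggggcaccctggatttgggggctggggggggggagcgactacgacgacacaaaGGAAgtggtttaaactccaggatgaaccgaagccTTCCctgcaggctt
Etv1 start 1, chr12:38779832-38780131, plus strand: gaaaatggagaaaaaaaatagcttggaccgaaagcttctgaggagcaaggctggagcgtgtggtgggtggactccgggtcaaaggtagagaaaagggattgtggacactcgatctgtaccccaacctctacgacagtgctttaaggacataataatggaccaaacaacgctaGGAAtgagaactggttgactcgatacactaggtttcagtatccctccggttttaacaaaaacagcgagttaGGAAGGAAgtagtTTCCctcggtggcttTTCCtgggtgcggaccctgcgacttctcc
Etv1 start 2, chr12:38783461-38783760, plus strand: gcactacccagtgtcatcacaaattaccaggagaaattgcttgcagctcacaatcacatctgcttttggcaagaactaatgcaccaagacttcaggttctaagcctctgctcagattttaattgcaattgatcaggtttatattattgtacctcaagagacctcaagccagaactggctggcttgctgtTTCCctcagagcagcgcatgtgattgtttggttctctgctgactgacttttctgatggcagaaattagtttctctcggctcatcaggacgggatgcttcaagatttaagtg

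The Etv5 starts differed in these letters. Start 1 (74% G and C) held none of the 7 motifs. Start 2 (60% G and C) held 6 matches to GGAA and 3 to TGAATGG, which begin at positions -242, -198 and -130 from the start, and the first of the 3 shares 1 base with a GGAA. Of all 32851 promoter windows in the RefSeq table, 96.0% held GGAA at least 1 time, 15.7% held it at least 6 times, and 3.59% held TGAATGG. Start 2 of Etv5 was the only window of the table with 3 or more matches to TGAATGG. Because those letters were chosen on this promoter, that count is a description of it. Etv1 start 1 held 5 matches to GGAA and start 2 held 1. The other motifs, with shares of 3.89% (CCGGAAGT), 1.30% (TGAATGAA), 0.749% (TCAATGAA), 7.81% (TGANTCA) and 1.79% (TGACGTCA) over the table, were not in these 4 windows.

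Etv4 and Etv5 were higher in the T173I cells, and Etv1 was not separated between the groups. For Etv4, the founding PEA3 factor and a regulator of branching, log2 signals were 5.64, 5.69 and 5.77 on the wild-type arrays and 6.51, 7.14 and 7.41 on T173I replicates 1, 2 and 3. All 3 T173I arrays lay above the wild-type range, with replicate 1 the nearest to it. The means were 5.70 ± 0.067 and 7.02 ± 0.46 (SD, n = 3 each), a difference of 1.32 or 2.49-fold. The wild-type arrays spanned 0.13 and the T173I arrays 0.90. Wild-type Etv4 was dim, not far above the filter (5.37) and the array medians (5.45 to 5.52), so its fold is measured from a low level.

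Etv5, which acts redundantly with Etv4 in the ureteric bud, had signals of 6.02, 6.02 and 6.07 in wild type and 6.38, 8.01 and 8.73 on T173I replicates 1, 2 and 3. Replicate 1 was just above the wild-type arrays, and replicates 2 and 3 were far above them. The means were 6.04 ± 0.028 and 7.71 ± 1.21 (SD, n = 3 each), a difference of 1.67 or 3.18-fold. The T173I arrays spanned 2.35 and the wild-type arrays 0.050. Wild-type Etv5, too, was not far above the filter of 5.37, so its fold and small wild-type SD come from a dim signal. A second, dimmer Etv5 probe set did not show this difference: its signal was 5.66 on all wild-type arrays and 5.66, 5.71 and 5.64 on the T173I arrays. With the mean of both probe sets in place of the brighter, the Etv5 difference was 0.84, and all T173I arrays remained above the wild-type arrays.

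Etv1, the third PEA3 factor, had signals of 5.21, 5.41 and 6.19 in wild type and 5.55, 5.13 and 6.63 on T173I replicates 1, 2 and 3. The groups overlapped, and replicate 3 was the highest array of each group. The signal was dim, and wild-type replicate 1 and T173I replicate 2 were under the filter of 5.37. The means were 5.60 ± 0.52 and 5.77 ± 0.77 (SD, n = 3 each), a difference of 0.17 that is smaller than either SD. The sign turned without T173I replicate 3 (-0.26) and also without wild-type replicate 1. The second Etv1 probe set, nearly as bright, was at 5.34 to 5.49 in wild type and 5.36 to 5.66 in T173I, with a difference of 0.030.

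**Figure D1:**
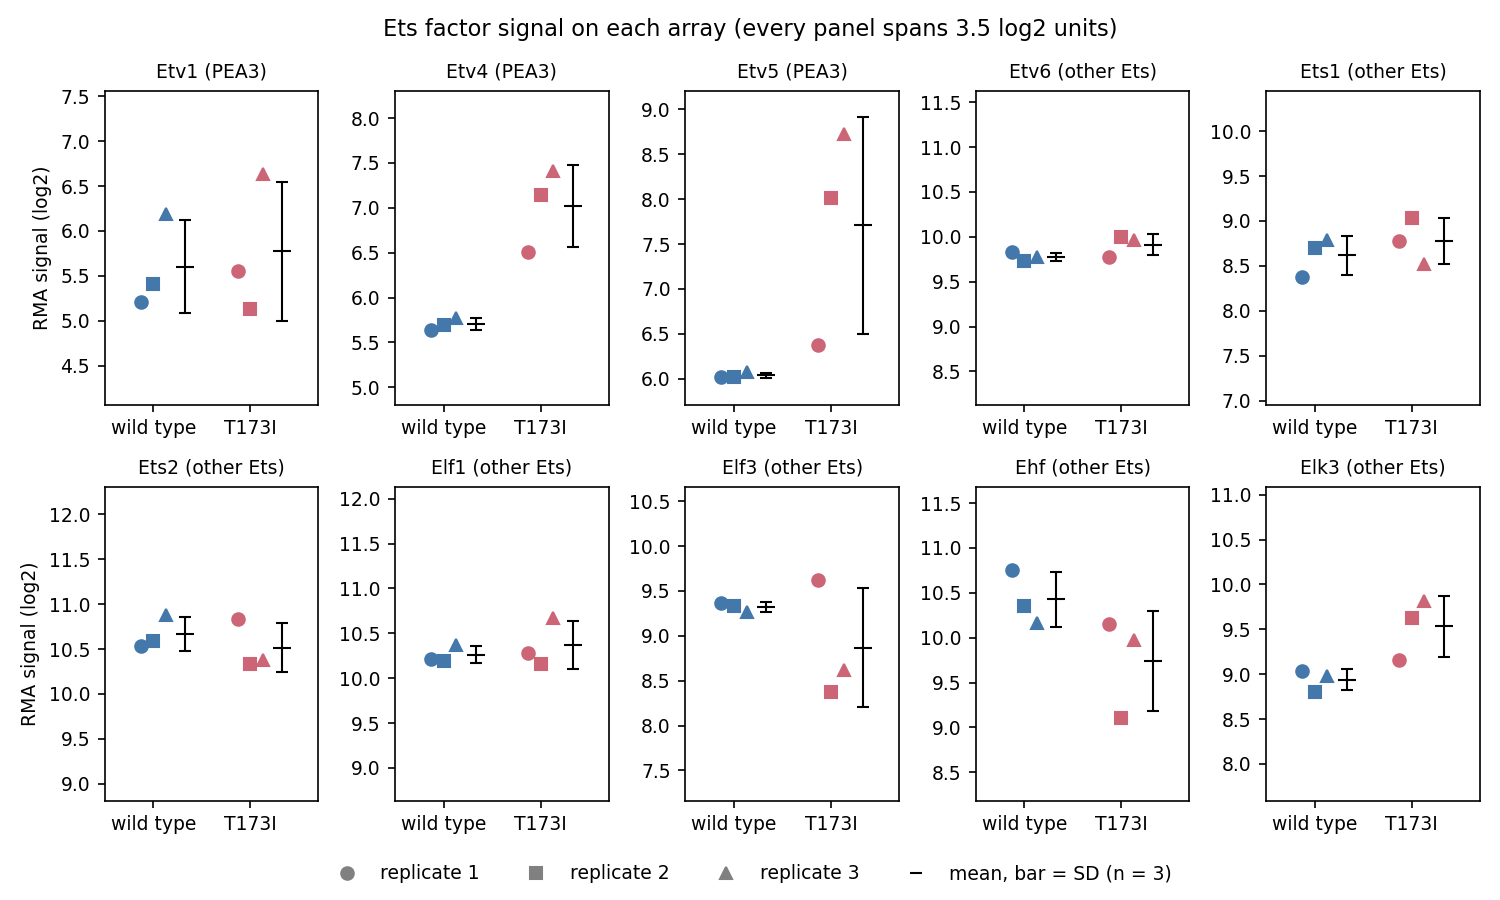
RMA signal (log2, y axis) of the 10 Ets factors on each wild-type (blue) and T173I (red) array, with symbols for the replicate number and the mean ± SD (n = 3) beside them. Etv4, Etv5 and Elk3 have all T173I arrays above the wild-type arrays, Ehf has all of them below, and the other 6 genes overlap.

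Elf3 and Ehf, the epithelium-specific factors, had lower means in T173I. Ehf was at 10.76, 10.36 and 10.16 on the wild-type arrays and at 10.15, 9.11 and 9.97 on T173I replicates 1, 2 and 3. The T173I arrays all lay below the wild-type range, but replicate 1, at 10.154, was only just under the lowest wild-type array at 10.162, and with each array shifted to one median the groups overlapped. The means were 10.4 ± 0.30 and 9.74 ± 0.56 (SD, n = 3 each), a difference of -0.68, or 1.60-fold lower, and the difference was -0.36 without T173I replicate 2. Elf3 was at 9.37, 9.34 and 9.26 in wild type and at 9.62, 8.37 and 8.62 in T173I. Replicate 1 was the highest of the 6 arrays and replicates 2 and 3 were the lowest, so the groups overlapped. Its difference was -0.45, and it became -0.83 when T173I replicate 1 was left out and -0.21 when T173I replicate 2 was.

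Elk3, a ternary complex factor that represses until it is phosphorylated by ERK, was at 9.03, 8.81 and 8.98 in wild type and at 9.16, 9.63 and 9.82 on T173I replicates 1, 2 and 3. All T173I arrays lay above the wild-type arrays, with replicate 1 the nearest. The means were 8.94 ± 0.12 and 9.53 ± 0.34 (SD, n = 3 each), a difference of 0.60 or 1.51-fold.

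The remaining 4 factors overlapped between the groups and differed by at most 0.16 in either direction. Ets1, the founding member of the family, was at 8.37, 8.70 and 8.78 in wild type and 8.78, 9.03 and 8.52 in T173I, a difference of 0.16 that was 0.031 without T173I replicate 2. Ets2, its close relative, was at 10.53, 10.59 and 10.88 in wild type and 10.84, 10.33 and 10.38 in T173I, a difference of -0.15 that was -0.31 without T173I replicate 1 and -0.042 without wild-type replicate 3. For Ets2, replicates 2 and 3 of T173I lay below the wild-type range and replicate 1 inside it. Etv6 was at 9.83, 9.73 and 9.77 in wild type and 9.78, 9.99 and 9.96 in T173I, with replicates 2 and 3 above the wild-type range and a difference of 0.13 (0.20 without T173I replicate 1). Elf1, an activator of the Elf branch, was at 10.22, 10.19 and 10.37 in wild type and 10.28, 10.16 and 10.67 in T173I, a difference of 0.11 that turned to -0.038 without T173I replicate 3. A further probe set that lists Ets1 beside Taok1 was not used for Ets1.

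In all, 3 of the 10 factors had every T173I array above the wild-type arrays, where 7.23% of the 13308 genes tested did, and 1 of 10 had every T173I array below, where 7.95% did. The same contrast chose the 10 genes, so nothing is read from these counts. All 10 factors had a larger SD in T173I than in wild type, and the median SD over all genes tested was also larger (0.16 against 0.098). On T173I replicate 1, 5 of the 10 lay outside the wild-type range, against 10 on replicate 2 and 9 on replicate 3. Over all 13308 genes, too, replicate 2 had the lowest correlations with wild type (0.959 to 0.967) and replicate 1 the highest (0.985 to 0.991). The shares over all genes were not worked out, so these counts are not read as a trait of the Ets factors. Without T173I replicate 1, Etv6 joined the factors above the wild-type arrays (4 of 10, with 17.5% of genes tested) and Ets2 and Elf3 joined those below (3 of 10, with 22.1%). Without wild-type replicate 1, Etv6 also joined the former.

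The PEA3 factors were set against the other 7 on each array by the mean deviation of the genes from their own wild-type means. The PEA3 mean was -0.16, -0.073 and 0.23 on the wild-type arrays and 0.37, 0.98 and 1.81 on T173I replicates 1, 2 and 3. The mean of the other 7 was 0.013, -0.042 and 0.029 in wild type and 0.085, -0.20 and -0.011 in T173I. All T173I arrays were above the wild-type arrays for the PEA3 mean, replicate 1 narrowly. The mean of the others stayed near 0, with Elk3 higher and Ehf and Elf3 lower among them. The PEA3 mean minus the mean of the others differed between the groups by 1.09, which was 0.73 without T173I replicate 3. The PEA3 factors did not move together on every array: on T173I replicate 2 Etv1 had a deviation of -0.47, against 1.44 for Etv4 and 1.98 for Etv5.

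**Figure D2:**
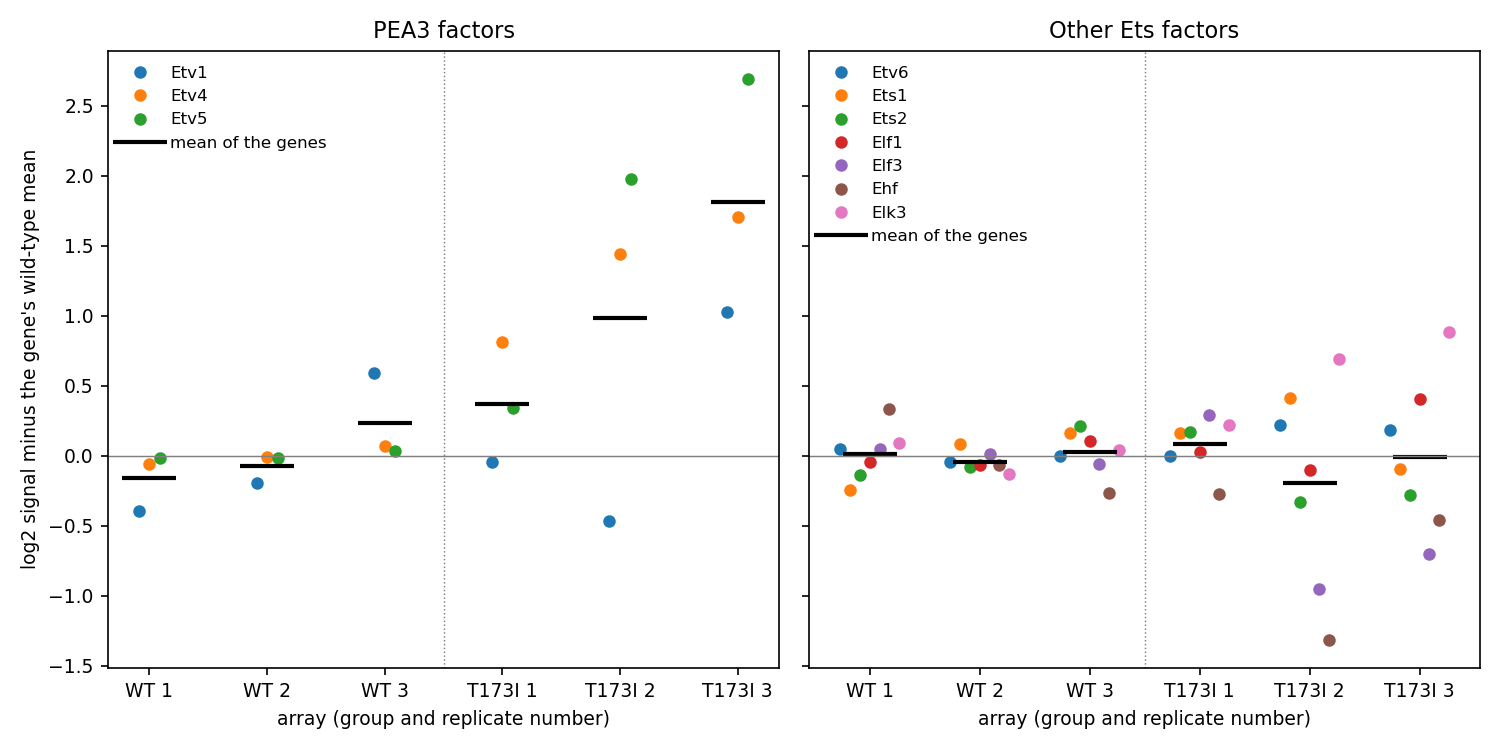
Log2 signal minus the gene's wild-type mean (y axis) for the 3 PEA3 factors (left) and the other 7 Ets factors (right) on each array (x axis), with a bar for the mean of the genes. The PEA3 mean is 1.81 on T173I replicate 3 and 0.37 on replicate 1, and the mean of the others stays between -0.20 and 0.085.

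The rest of the Ets family, genes not among the 10, was examined with limma. This list and the gene lists that follow were also chosen with earlier results of these data known. Their p-values and counts are therefore given as descriptions. Of 16 further Ets genes 15 had a value and 10 passed the filter, and none of the 10 passed the adjusted threshold of 0.05, where 0% of the genes tested did (lowest adjusted p 0.49, limma). Their median difference was -0.061, beside -0.011 over all genes tested. At an unadjusted p under 0.05 there were also 0 of the 10, against 1357 of 13308 (650 higher and 707 lower). Elf2, an Elf1 relative, had signals of 10.11, 9.96 and 9.98 in wild type and 9.91, 9.58 and 9.79 in T173I, a difference of -0.26 (95% interval -0.52 to 0.00061), with all T173I arrays lower and a value of -0.17 without T173I replicate 2. The ternary complex factors Elk1 and Elk4 had differences of -0.10 (-0.28 to 0.084) and -0.12 (-0.31 to 0.068). Erf and Etv3, related repressors, had 0.015 (-0.21 to 0.24) and 0.076 (-0.12 to 0.27). Gabpa, the Ets subunit of GABP, had -0.053 (-0.29 to 0.19), and Elf4 had 0.15, Etv2 0.13 and Spdef -0.12. Of the 10, 1 (Etv2) had all T173I arrays above the wild-type arrays where 7.23% of all genes tested did, and 4 (Elk1, Elf2, Spdef and Spi1) had them below, where 7.95% did. Some of these separations were narrow. The nearest T173I and wild-type arrays were at 5.85245 and 5.85176 for Etv2, 5.821 and 5.827 for Spi1, and 8.56 and 8.58 for Elk1. Erg, Fli1, Elf5, Spib and Spic did not pass the filter.

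**Figure D3:**
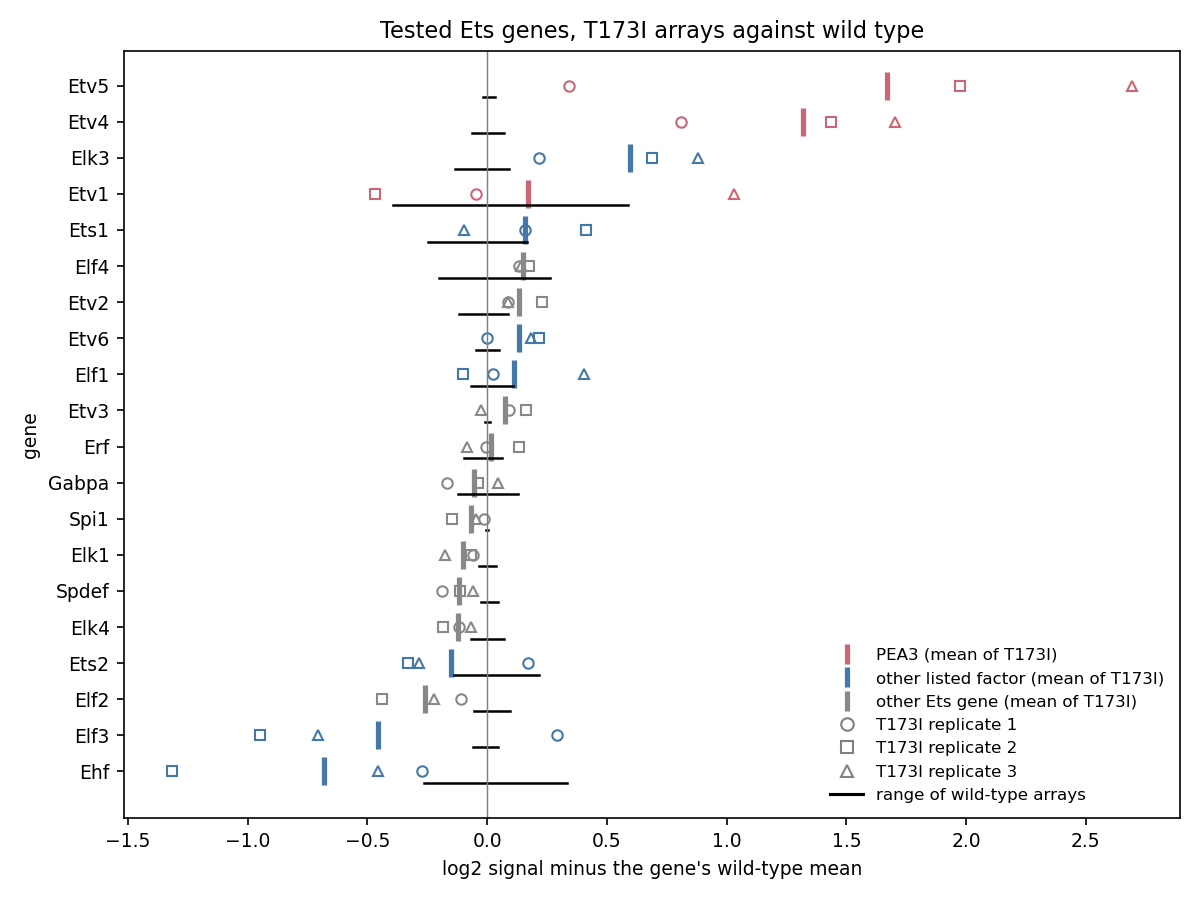
Log2 signal minus the wild-type mean (x axis) for the 20 tested Ets genes (y axis): vertical ticks are T173I means, open symbols the 3 T173I arrays and black lines the range of the wild-type arrays. Etv5 (1.67) and Etv4 (1.32) lie at the upper end and Ehf (-0.68) at the lower, while the 10 Ets genes in grey lie between -0.26 and 0.15.

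Genes that act upstream of the PEA3 factors did not move in one direction. Of 24 receptors, RAS and ERK cascade genes and regulators 19 had a value and were tested, 0 passed the adjusted threshold in limma (lowest adjusted p 0.45), and the median difference was -0.012. Without adjustment, p was under 0.05 for 3 higher genes and 1 lower gene of the 19, beside 650 higher and 707 lower of all 13308 genes. That lower gene was Fgfr2, a receptor for fibroblast growth factors in the ureteric bud, at 9.21, 9.07 and 9.13 in wild type and 8.74, 7.28 and 7.50 on T173I replicates 1, 2 and 3. All T173I arrays lay below the wild-type arrays, and the difference was -1.30 (95% interval -2.16 to -0.43, adjusted p = 0.45). Without T173I replicate 1 the difference was -1.75 and limma called it (adjusted p = 0.011). That setting called 156 of the 13308 genes, against 0 with all arrays kept, so the call is not particular to Fgfr2. When replicate 2 of T173I was dropped instead, Fgfr2 had -1.02, and dropping replicate 3 gave -1.13. Limma called 0 genes in both of these settings.

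The 3 higher genes were Met, Map2k1 and Fgfr3. Met, the receptor for hepatocyte growth factor, was at 9.66, 9.67 and 9.70 in wild type and 9.81, 10.49 and 10.12 in T173I, a difference of 0.46 (0.058 to 0.87) that was 0.29 without T173I replicate 2. Map2k1, which encodes the ERK kinase MEK1, had 0.26 (0.078 to 0.45) and Fgfr3 0.30 (0.030 to 0.56). In all 3 the T173I arrays lay above the wild-type arrays. Ret, the receptor for GDNF, had a difference of 0.075 (-0.11 to 0.26) and Egfr one of -0.26 (-0.76 to 0.24). T173I replicate 3 was the low array for Egfr (9.95, against 10.76 and 10.65 on the other T173I arrays), and without that array it was -0.0077. Cic had -0.22 (-0.52 to 0.091), with 7.84 and 7.88 on T173I replicates 2 and 3 against 8.15 to 8.29 in wild type and 8.25 on replicate 1; leaving out 1 T173I array gave -0.35 to -0.14. Atxn1, a partner of capicua, had 0.21 (0.13 without T173I replicate 3), and Cop1, the ubiquitin ligase that degrades PEA3 proteins, had -0.047 (-0.28 to 0.18).

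Genes that ERK signalling induces alongside the PEA3 factors, mostly feedback inhibitors, had positive differences in 13 of 14 tested. The median was 0.41, beside -0.011 over all genes, of which 47.4% had positive differences. Leaving out T173I replicate 2 gave 0.23, and leaving out T173I replicate 1 gave 0.70. In limma 0 of the 14 passed (lowest adjusted p 0.45), and without adjustment 4 higher genes and 0 lower genes of the 14 had p under 0.05, beside 650 and 707 of all 13308 genes. Ccnd1, cyclin D1, had 2.53 (0.64 to 4.42). Without T173I replicate 1 it had 3.43 and was called in limma (adjusted p = 0.036), as were 156 of the 13308 genes. Ccnd1 had 1.91 without T173I replicate 2. T173I replicate 1 (7.71) was only just above its highest wild-type array (7.68). Spry4, a Sprouty inhibitor of RAS signalling, was at 6.22, 6.92 and 6.83 in wild type and 6.92, 8.43 and 7.79 in T173I, a difference of 1.06 (0.13 to 1.98). Dusp4 and Dusp6, phosphatases of MAP kinases, had 0.55 (0.11 to 0.99) and 0.65 (-0.0060 to 1.30), Spred3 had 0.29 (0.017 to 0.57) and Epha2, an ephrin receptor, 0.91 (-0.051 to 1.88). Without T173I replicate 2 the differences were 0.70 for Spry4, 0.34 for Dusp4, 0.42 for Dusp6 and 0.44 for Epha2, and that of Dusp6 was also 0.42 without wild-type replicate 1. Spry1 was the gene with a negative difference, -0.24.

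The T173I arrays differed in their order between these genes and the PEA3 factors. By their brightest probe sets Etv1, Etv4 and Etv5 were each highest on T173I replicate 3. By contrast 13 of the 14 ERK output genes were highest on replicate 2, the exception being Spred2. Replicate 3 was also the highest T173I array for Elf1 and Elk3, and for 7 of the 13 tested partners and cofactors of Ets factors. The second, dimmer probe sets of Etv1 and Etv5 were highest on T173I replicates 1 and 2. In wild type, too, Etv1 was highest on replicate 3. Over all genes tested, 30.7% were highest on replicate 2 among the T173I arrays and 27.1% on replicate 3. Etv4 had a deviation of 0.81 on T173I replicate 1, and on that array the ERK output genes were mixed: Ccnd1, Dusp4, Spred3 and Epha2 lay above their wild-type ranges, Dusp5, Spry2 and Epha4 below, and the other 7 inside. These orders come from 3 arrays and were not tested.

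**Figure D4:**
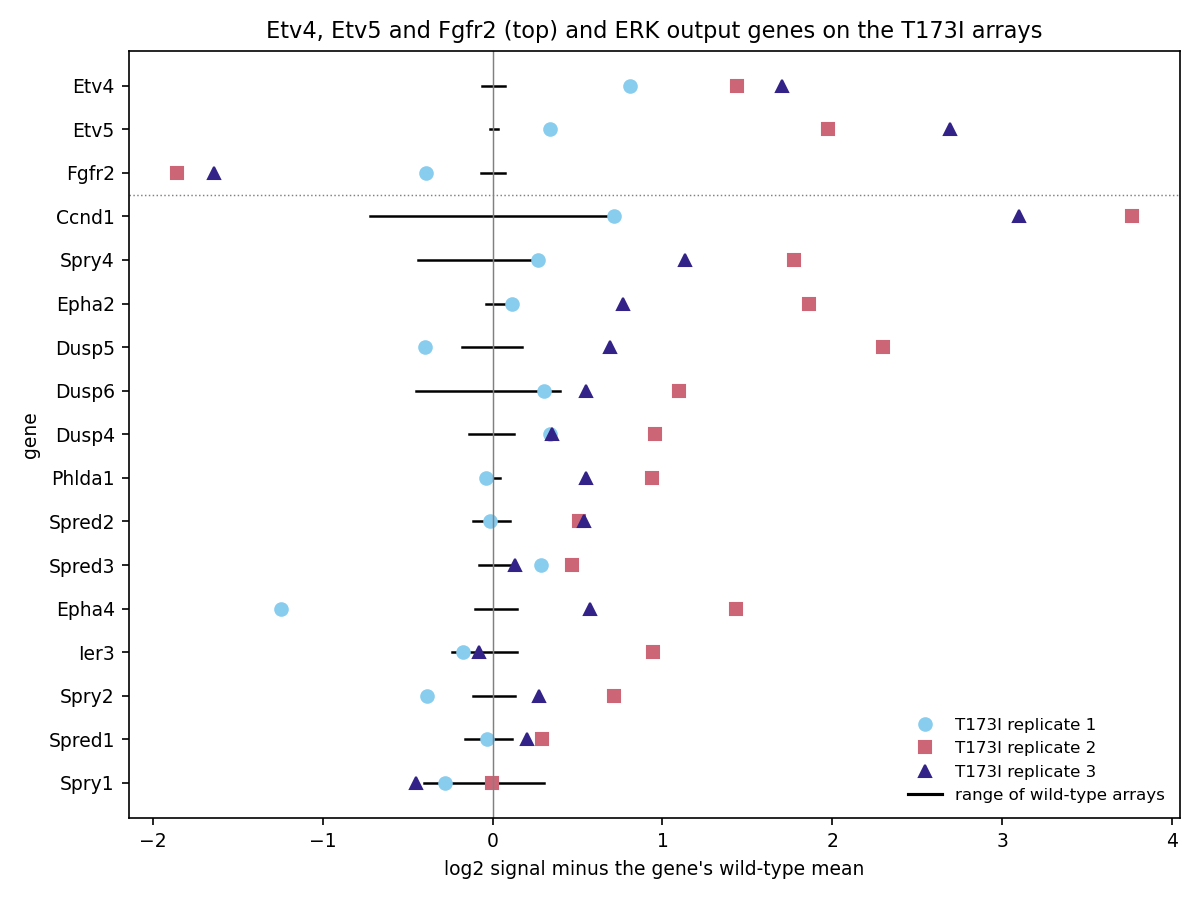
Log2 signal minus the wild-type mean (x axis) of Etv4, Etv5 and Fgfr2 (top) and 14 ERK output genes (y axis) on T173I replicates 1 (circles), 2 (squares) and 3 (triangles), with black lines for the range of the wild-type arrays. The triangle is furthest right for Etv4 and Etv5 and the square for 13 of the 14 ERK output genes.

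Genes described in other systems as downstream of PEA3 factors had 7 positive and 7 negative differences among 14 tested of 19, and 5 matrix metalloproteinases did not pass the filter. The median was 0.23, or 0.055 with T173I replicate 2 left out and 0.41 with T173I replicate 1 left out. In limma 0 passed (lowest adjusted p 0.45), and without adjustment 3 higher genes and 1 lower gene of the 14 had p under 0.05, beside 650 and 707 of all 13308 genes. The 3 were Plaur, Met, which the upstream list also holds, and Ccnd2, whose wild-type signals lay under the filter. Of the genes that Etv4 and Etv5 control in the ureteric bud, Met is given above. Cxcr4, a chemokine receptor, had a difference of -0.0024 (-0.18 to 0.17), Mmp14, a membrane metalloproteinase, -0.031 (-0.34 to 0.28) and Myb -0.10 (-0.40 to 0.20). Plaur, the urokinase receptor, was at 8.01, 8.76 and 8.78 in wild type and 8.93, 10.73 and 10.13 in T173I, a difference of 1.41 (0.31 to 2.51). Ccnd2, cyclin D2, was at 4.46 to 4.72 in wild type and at 4.57, 9.72 and 8.28 in T173I, with replicate 1 inside the wild-type range. Its wild-type signals were under 5.37, so it passed the filter only through T173I replicates 2 and 3. Its difference and exact p-value are left out, and nothing is read from its unadjusted p under 0.05. The 7 positive differences, the medians and the 3 higher genes above include it, and its part in them rests on those arrays. Bmp4, a growth factor, was the lower gene at -1.25 (-2.22 to -0.29). Without T173I replicate 1, limma called Bmp4 (-1.70, adjusted p = 0.046), in a setting that called 156 of the 13308 genes. The Bmp4 difference was -1.01 without T173I replicate 2, -1.05 without T173I replicate 3 and -1.02 without wild-type replicate 3. T173I replicate 1 (9.21) was only just under the lowest wild-type array (9.25).

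Among 13 tested partners and cofactors of Ets factors the median difference was 0.13, with 10 positive, and 0 passed in limma (lowest adjusted p 0.45). Leaving out 1 array gave medians of 0.063 (T173I replicate 3), 0.064 (wild-type replicate 2) and up to 0.23 (wild-type replicate 3), and the mean of a gene's probe sets gave 0.071. Without adjustment 2 higher genes and 1 lower gene of the 13 had p under 0.05, beside 650 and 707 of all 13308 genes. Srf, the partner of Elk1, Elk3 and Elk4, was at 9.28, 9.50 and 9.33 in wild type and 9.66, 9.94 and 9.78 in T173I, a difference of 0.42 (0.16 to 0.68), with all T173I arrays above. Runx1, which binds DNA together with Ets1, had 0.72 (0.018 to 1.43), and Mrtfa, a cofactor of Srf, had 0.23 (-0.0062 to 0.46). Ncoa2, a coactivator, had -0.37 (-0.69 to -0.051). Runx1, Mrtfa and Ncoa2 had 0.47, 0.15 and -0.23 without T173I replicate 2.

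Likeness to a PEA3 factor was measured as the root mean square difference, over the 6 arrays, between the log2 deviations of 2 genes from their wild-type means, among 12244 named genes. For Etv4 the nearest were Mthfd2 (0.21), Car6 (0.22), Ramp3 (0.22), Il18r1 (0.23) and Dpysl5 (0.24). Mthfd2, a mitochondrial folate enzyme, was at 8.53, 8.91 and 8.70 in wild type and 9.48, 10.25 and 9.99 in T173I. For Etv5 the nearest were Ptprn (0.39), Ptpn22 (0.42), Stmn2 (0.42), Cd109 (0.44) and Krt19 (0.45). Car6 (4.58 to 5.12) and Ptpn22 (4.80 to 5.12) were under 5.37 on every wild-type array. These genes passed the filter only through T173I arrays, so nothing is read from their likeness. Krt19, a simple epithelial keratin, was at 8.18, 8.62 and 8.81 in wild type and 9.43, 10.63 and 10.39 in T173I. For Etv1 the nearest were B4galnt2 (0.24), Niban1 (0.25), Tekt5 (0.28), Hpse (0.29) and Gch1 (0.29). Etv5 differed from Etv4 by 0.50, and would rank 117 among the genes nearest to Etv4. The profiles share arrays, so this likeness is a description of these 6 arrays.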

How the data were processed

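RNA from 6 samples was hybridised to 1 array each after amplification with the Affymetrix WT PLUS kit, per the labels' protocols. The deposited log2 values are RMA output of the authors, per the submitters' processing notes. That method removes background, gives the arrays like signal distributions and summarises probes by set, so a shift of most genes in one direction would not be seen. No label or header states its version or the probe set definition. The title of T173I replicate 3 reads ILK-173I and its transduction label ILK-T173I; it was kept in the T173I group.

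Of 41345 probe sets, 23521 had 1 symbol. The brightest by mean over all arrays stood for each of 22180 genes, and the lowest 40% were left out. The other 13308 were fitted with limma 3.58.1 (R 4.3.3; lmFit, eBayes, two-sided, no covariate), with Benjamini-Hochberg adjusted p over all of them and a threshold of 0.05. Intervals are 95% intervals of this fit. The script was tested on simulated data. Array number limits the precision, and p-values measure the spread between these arrays. The factors and gene lists were chosen with earlier results of these data known. Genes named from a list were a fixed few plus up to 3 with the smallest p. Alternatives covered the filter, prior, array weights, normalization, probe set rule, replicate block and leaving out each array.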

Additional observations from a re-analysis of the deposited data

How the results depend on the processing

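The count of genes called by limma was 0 under each alternative that kept all 6 arrays, and leaving out 1 array gave 0 to 156, the 156 without T173I replicate 1. At an unadjusted p under 0.05 the 1357 genes became 2856 with array weights and 670 to 2946 when 1 array was left out. Leaving out 1 array gave 0 to 1 called upstream genes, 0 to 1 ERK outputs and 0 to 2 downstream genes, and 0 other Ets genes and partners. Of the downstream genes, 1 was Ccnd2, under the filter in wild type, and nothing is read from its call. The factors with all T173I arrays below the wild-type arrays numbered 0 with arrays shifted to one median and 1 to 3 with 1 array left out, against 1. The PEA3 mean minus that of the others was 0.79 with the mean of a gene's probe sets and 0.73 to 1.50 with 1 array left out. The upstream median of -0.012 turned positive when any 1 wild-type array (0.011, 0.013 and 0.015) or T173I replicate 2 (0.017) was left out. Repeating the quantile normalization moved the median of all genes by 0.012. Same-numbered arrays had small positive correlations of deviations, 0.049, 0.067 and 0.048 over 13308 genes. Whether the replicate numbers pair the arrays for some of the genes was not tested. With the replicate block 0 genes were called and 1508 had an unadjusted p under 0.05.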

Other observations

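Etv1 was highest on replicate 3 in both groups, with deviations from its wild-type mean of 0.59 on wild-type replicate 3 and 1.03 on T173I replicate 3. Its second probe set was at 5.34 and 5.36 on those arrays, the lowest wild-type value and a tie for the lowest T173I value. B4galnt2, the gene most like Etv1, was at 6.38 and 6.37 on the same arrays and at 5.46 to 5.55 on the other 4.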
